A study of Mus musculus with 3 samples.

Results

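Among the regions of a deposited ChIP-seq comparison table, 1942 held at least 4 reads in each of 2 Ets-1 precipitations and no more than 4 reads in the input. They were selected on these counts from 542768 regions on chromosomes 1 to 19 and X, 0.358% of that set, and the authors' fold and call columns played no part. The whole table holds 543367 regions. The cells were Min6, an insulin-secreting mouse line derived from a pancreatic β-cell tumour, kept in 25 mM glucose. In one precipitated library they had been infected for 24 h with Ad-GFP, the control adenovirus that carries a green fluorescent protein, and in the other with Ad-Ets-1, the adenovirus that overexpresses Ets-1. Both were precipitated with an antibody against Ets1 after crosslinking in 1% formaldehyde for 10 min and were sequenced in pairs. The remaining library is an input, chromatin without precipitation, whose virus the labels do not state. Each group held 1 library, so differences have no replicate check and p-values are not given.

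Ets-1 is the founding member of the ETS family of transcription factors. These proteins contact DNA through a winged helix-turn-helix domain and recognise a GGAA or GGAT core, and the bases on either side set how tightly a given member binds. In many cell types, ETS sites of the form CCGGAAGT lie in CpG-rich promoters close to the start of transcription, where several family members can occupy the same site. The β cell senses glucose through its metabolism, which closes ATP-sensitive potassium channels and induces genes such as Txnip through the factor ChREBP.

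The words CAGGAAGT and CCGGAAGT, together called the ETS word here, were searched on both strands in the 200 bp at the centre of each region. Both contain the core GGAAGT, and no position can match both. The word was found in 32 of the 1942 regions, of which 13 were promoters. The matches of 11 of these promoters are shown because the description of promoters turned on them. Sequences are from the RefSeq copy of GRCm38.p6 (mm10), given 5′ to 3′ on the strand that carries the word, with the word in capitals and 11 bases on each side. Rpl32 and Hist1h1c came from the rule for named genes, and the others were added after their words had been seen.
Rpl32, chr6:115808802-115808831, minus strand: aggacccagagCCGGAAGTgcttccctttt
Emc7, chr2:112455018-112455047, minus strand: aggcctacggcCCGGAAGTcctaccccgcc
Ngrn, chr7:80261160-80261189, minus strand: gaaaggaataaCCGGAAGTtagacggtatc
Ngrn, chr7:80261200-80261229, minus strand: accggaaagcaCCGGAAGTgggagggcgaa
Bod1l, chr5:41844286-41844315, plus strand: ctagagcaaccCCGGAAGTgaaaaggaact
Zdhhc5, chr2:84715598-84715627, plus strand: ctacgtatgtaCCGGAAGTgctcaaaaaca
Wdr83, chr8:85080949-85080978, plus strand: cattcccacgcCCGGAAGTtgctcttctag
Hist1h1c, chr13:23739657-23739686, plus strand: gctgggctgctCAGGAAGTgctatgggctg
Sdf2l1, chr16:17133243-17133272, plus strand: agtagtggaggCAGGAAGTtcaagaataag
Fyco1, chr9:123852108-123852137, minus strand: tgttcgagtttCAGGAAGTgacgtctgccg
Slc7a1, chr5:148399034-148399063, plus strand: ctgatcgtgccCAGGAAGTcttccactgga
Gm6423, chr6:124249447-124249476, plus strand: cccaaaacattCAGGAAGTccaggacacaa

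The 13 promoters held 14 matches, since Ngrn had 2. CCGGAAGT made up 8 of the 14 and CAGGAAGT 6. Of the 14 matches, 7 lay within 200 bp of the start of a protein-coding transcript in GENCODE M21: in Rpl32, a protein of the large ribosomal subunit, the word lay 70 bp upstream, and in Emc7, a subunit of the endoplasmic reticulum membrane complex, 36 bp downstream. Outside promoters, 19 regions held 19 matches. All 19 were CAGGAAGT, none was CCGGAAGT, and none lay within 200 bp of a coding start.

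The region with the most reads of the 1942 also held the word. It lies 25376 bp downstream of the start of Klf5, a zinc finger transcription factor, in distal intergenic sequence at chr14:99324530-99325536. The 200 bp at its centre are shown on the plus strand, with the reverse complement of CAGGAAGT in capitals.
Klf5, chr14:99324934-99325133, plus strand: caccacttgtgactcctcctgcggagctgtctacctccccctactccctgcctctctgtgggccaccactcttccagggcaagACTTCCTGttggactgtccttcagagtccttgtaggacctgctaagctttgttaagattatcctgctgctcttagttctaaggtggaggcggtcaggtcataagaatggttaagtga

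Most of the 1942 regions rested on very few reads. The table's totals were 1938473 reads for Ad-Ets-1, 1775757 for Ad-GFP and 3937473 for the input. Exactly 4 reads in both precipitations were found in 813 regions, 41.9% of them. At least 6 reads in both were found in 213 regions, at least 8 in 70, at least 10 in 36 and at least 20 in 7. Even counts made up 89.3% of these regions in the Ad-Ets-1 library and 91.1% in the Ad-GFP library, and a count of 4 was taken as 2 fragments read from both ends. The input held 0 reads in 1572 regions, 1 in 179, 2 in 134, 3 in 30 and 4 in 27. Just outside the thresholds, 567 regions had 3 reads with Ad-Ets-1 and at least 4 with Ad-GFP, 367 had the reverse, and 7 had at least 4 in both and 5 in the input.

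The regions together took 10479 reads of the Ad-Ets-1 library, 10113 of the Ad-GFP library and 645 of the input. These are 0.541%, 0.570% and 0.0164% of the libraries, or 5406, 5695 and 164 RPM (reads scaled to a library total of 1000000). The excess over the input was set by the selection. Reads amplified by PCR and not tagged with molecular identifiers need not be separate molecules, and every interval below covers counting error only.

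**Figure D1:**
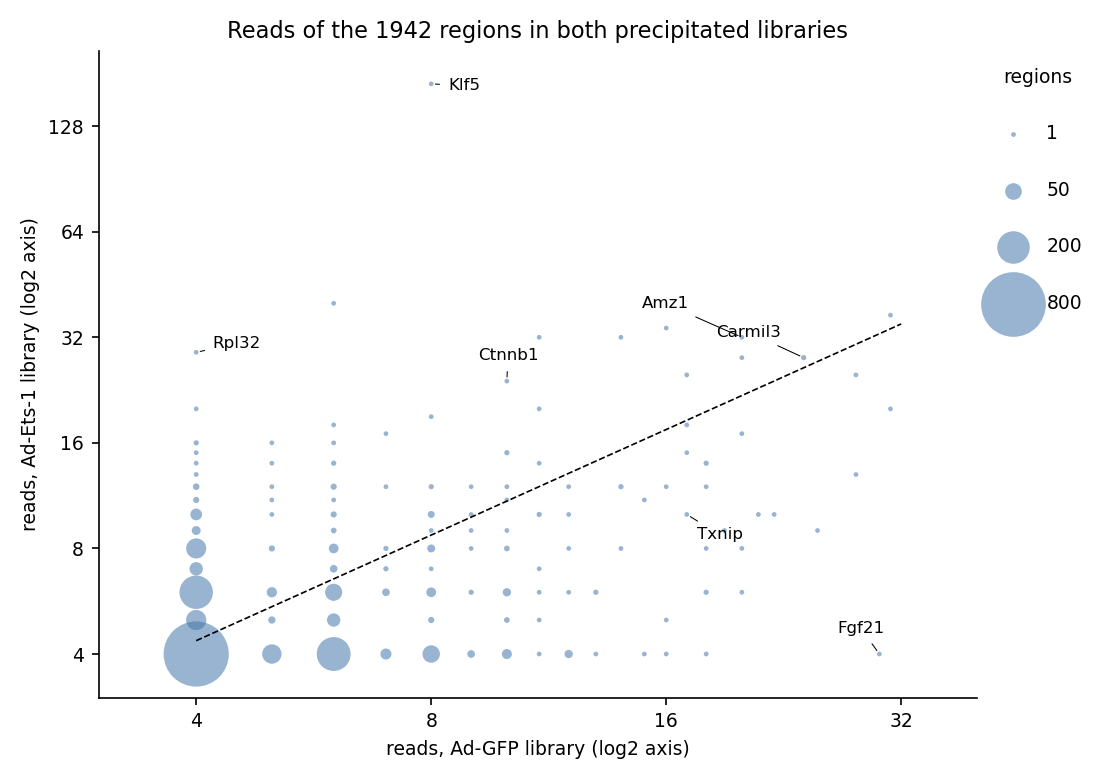
Reads of each region in the Ad-GFP library (horizontal, log2 axis) and the Ad-Ets-1 library (vertical, log2 axis); the area of a point grows with the number of regions at that pair of counts, and the dashed line marks equal RPM. The largest point holds the 813 regions with 4 reads in each library, and Klf5, with 169 against 8 reads, stands far above the line.

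Scaled to library totals, the ratio of Ad-Ets-1 to Ad-GFP reads had a median of 0.916, with quartiles of 0.763 and 1.15. The median is what equal read counts give in these libraries. The ratio was at least 2 in 66 of the 1942 regions, where 3.44% of 79895 regions with at least 4 reads in either library, whatever the input, reached it when counts under 3 were raised to 3. It was at least 2-fold lower in 114 regions, against 10.2% of the same background. The selection used both counts, so nothing is read from these shares. On fragments, the 95% interval of the ratio lay above 1 in 3 regions and below 1 in 2.

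Those 5 regions were the Klf5, Rpl32, Gm39469, Fgf21 and Gm24061 regions. The Klf5 region had 169 reads with Ad-Ets-1, 8 with Ad-GFP and 4 in the input, a ratio of 19.4 (95% interval 7.33 to 73.1). Rpl32 had 29, 4 and 4 reads at its start site, a ratio of 6.64 (1.598 to 61.9). The region nearest to Gm39469, a predicted gene, had 40, 6 and 4 reads, a ratio of 6.11 (1.81 to 32.1). All 3 had many reads with Ad-Ets-1 and no more than 8 with Ad-GFP. A further region at the promoter of Klf5, added after seeing the values, had 5, 4 and 0 reads.

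Of the low ratios, Fgf21, the gene of a fasting- and stress-induced hormone, had 4 reads with Ad-Ets-1, 30 with Ad-GFP and 4 in the input at its promoter, a ratio of 0.122 (0.0136 to 0.525). A region in intron 4 of 5 of Snx12, nearest to the predicted gene Gm24061, had 4, 18 and 2 reads, a ratio of 0.204 (0.0214 to 0.984). Low ratios were also found at Dnmbp with 4, 16 and 0 reads and near Gm25581 with 4, 15 and 0. The next highest ratios were at the start of Arid5b, a chromatin regulator, with 20, 4 and 3 reads, and near Olfr594, an olfactory receptor, with 16, 4 and 0, the same counts as a region near the predicted gene Gm16087. The intervals of these 4 ratios all included 1.

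The rule did not use position relative to genes. Promoters, as classed in the deposited annotation, made up 14.6% of the regions (284 of 1942, 95% exact interval 13.1 to 16.3), against 9.64% (9.33 to 9.95) of 35163 regions with at least 4 reads with Ad-Ets-1 and at most 3 with Ad-GFP, called read only with Ad-Ets-1 below. The share was 8.49% (8.22 to 8.75) of 42579 regions with the opposite pattern, read only with Ad-GFP, and 7.69% of all regions. A start site lay inside 6.54% (5.48 to 7.73) of the 1942 regions, against 2.33%, 1.36% and 0.9501% of those sets. The regions were also wider, with a median of 616 bp against 392, 400 and 249 bp; the part of width in these shares was not tested. Distal intergenic sequence held 48.2% of the regions, introns 31.5%, exons 2.52%, 3′ UTRs 1.80% and sequence just downstream of genes 1.24%.

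The promoter share differed with the number of reads. It was 10.6% (8.55 to 12.9) among the 813 regions with 4 reads in each library, 15.0% (12.7 to 17.6) where both together held 9 to 12 reads, and 25.7% (20.5 to 31.3) where they held 13 or more. Reads in a single library were compared at a higher minimum as well, a comparison added after seeing the data. Regions with at least 8 reads with Ad-Ets-1 and at most 3 with Ad-GFP were promoters in 16.6% (15.1 to 18.3), and those with the opposite pattern in 8.98% (7.63 to 10.5). The interval of the Ad-Ets-1 set overlapped that of the 1942 regions, and that of the Ad-GFP set lay below both.

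CpG-rich sequence was frequent among these promoters. Of the 284 promoter windows, 35.2% (29.7 to 41.1) had a GC content of at least 50% and an observed to expected CpG ratio of at least 0.6, against 18.1% (16.8 to 19.5) of promoters read only with Ad-Ets-1, 7.31% (6.48 to 8.20) of those read only with Ad-GFP and 5.70% of all promoter regions. At 8 reads or more in a single library, the shares were 37.9% (32.8 to 43.3) for Ad-Ets-1 and 15.2% (9.76 to 22.1) for Ad-GFP. Among the 1942 regions the share was 46.4% (34.3 to 58.8) of the 69 promoters with 13 or more reads in both libraries together. It was lower, 15.0% (3.21 to 37.9), in the 20 promoters with at least 8 reads in each. These 20 are part of the 69, so an overlap of the intervals says nothing about a difference. The high share was thus not seen in the promoters best read in both libraries, which are few. The 100 CpG-rich promoters had 683 reads with Ad-Ets-1, 495 with Ad-GFP and 72 in the input. Their median ratio was 1.15, with 56 of 100 above 1, 19 at least 2 and 4 at least 2-fold lower. The selection used both counts, so the ratios by class are descriptions only. The 184 other promoters had 1080, 1066 and 109 reads and a median ratio of 0.916, with 59 above 1, 6 at least 2 and 15 at least 2-fold lower. Outside promoters, 426 of 1658 regions were above 1, 41 were at least 2 and 95 at least 2-fold lower. The input held 464 reads there, so CpG-rich promoters were also the class with the most input reads per region. The part of the input in their read counts was not tested.

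**Figure D2:**
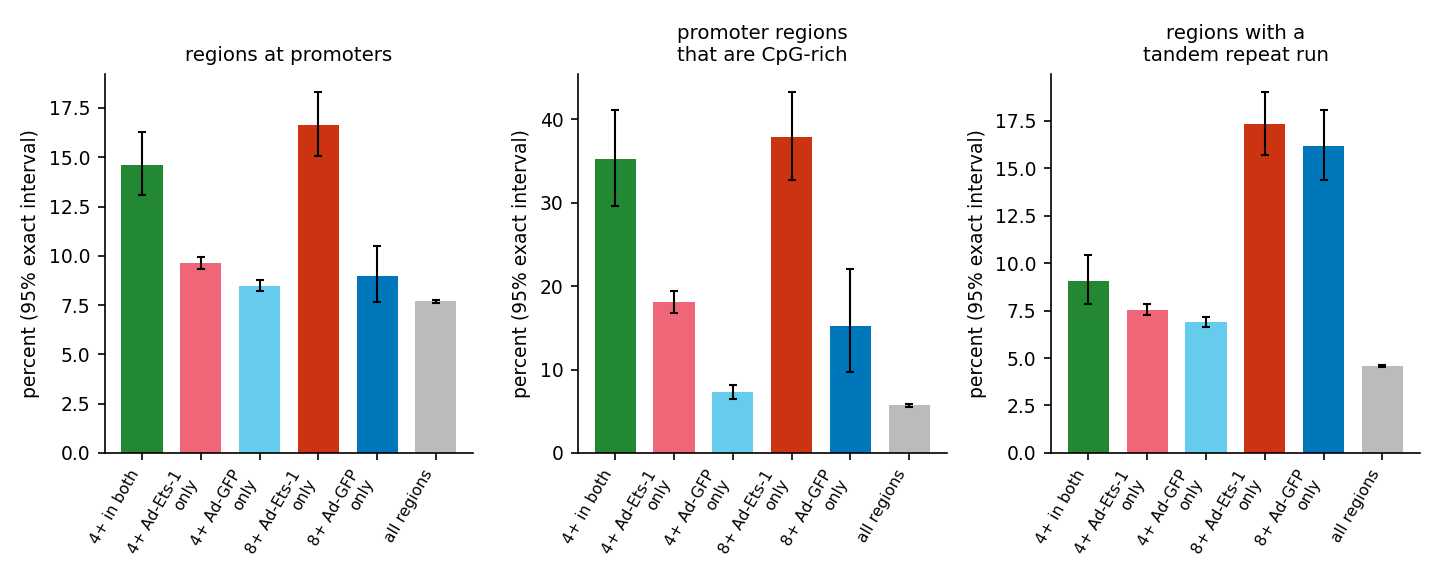
Share of regions at promoters, share of promoter regions that are CpG-rich and share of regions with a tandem repeat run, for the regions with 4 or more reads in both libraries, 4 or more or 8 or more in 1 library only (at most 3 in the other), and all regions; bars are percentages and lines 95% exact intervals. Promoter shares were 14.6%, 9.64%, 8.49%, 16.6%, 8.98% and 7.69% from left to right, and tandem runs were most frequent in both sets with 8 or more reads in a single library.

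Named promoters were the 15 with the highest lower RPM of both precipitations, leaving out predicted genes. Carmil3, a regulator of actin capping, led with 28 reads with Ad-Ets-1, 24 with Ad-GFP and 4 in the input. Chrm3, the muscarinic acetylcholine receptor M3 through which acetylcholine promotes insulin secretion, had 14, 18 and 4 reads, and Mettl3, the catalytic subunit of the RNA N6-adenosine methyltransferase, had 12, 18 and 4. Iqch had 13, 28 and 4 reads. Ctnnb1, which encodes β-catenin, had 24, 10 and 4. Txnip, the glucose-induced inhibitor of thioredoxin, had 10, 17 and 4 reads in a region of 276 bp that began 249 bp downstream of the start site. These 6 promoters all held 4 input reads, the highest input the selection allowed.

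Lower in the list, Rnf187, a ubiquitin ligase, had 19, 8 and 3 reads and Gt(ROSA)26Sor, the broadly transcribed Rosa26 locus, had 17, 7 and 2. Hist1h1c, which encodes a linker histone, and Kank1 each had 10, 8 and 0 reads, and Tcf4, a basic helix-loop-helix factor, had 8, 10 and 0. Rnu3b3, a U3 small nucleolar RNA gene, had 12, 8 and 2 reads, and Bloodlinc, Tmem267 and Akap2 each had 8, 8 and 2. Every ratio interval of the 15 included 1, and the ratio farthest from 1 was at Iqch, 0.425 (0.156 to 1.21).

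**Figure D3:**
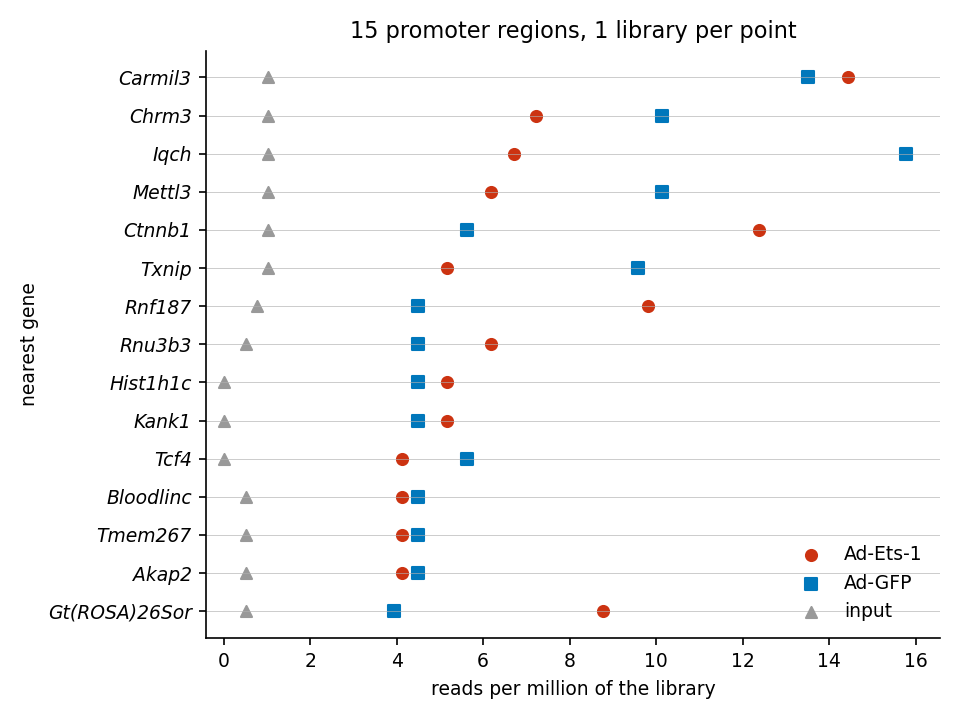
RPM in the 15 named promoter regions, 1 point per library, for Ad-Ets-1, Ad-GFP and the input. In each promoter both precipitations lie to the right of the input, as the selection required, and which of them is higher differs from gene to gene.

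Outside promoters, the highest lower RPM under the rule was shared by a region near AC166110.4 and a region in intron 2 of 3 of Gna12, a G protein α subunit, with Amz1 as the nearest gene. The Gna12 region had 32 reads with Ad-Ets-1, 20 with Ad-GFP and 3 in the input, and the summits of both libraries lay 1 bp apart. Distal regions near AC166110.4, with 28, 20 and 2 reads, and near Cacna1h, a T-type calcium channel gene, with 14, 11 and 2, had summits 16 and 56 bp apart. Sequence at the centre of the Cacna1h region, a stretch of 32 bp, occurs 26298 times in the genome, and that of the AC166110.4 region 23 times. A region in intron 39 of 48 of Myo7a, an unconventional myosin gene, had 18, 17 and 2 reads and a centre found 148 times. In these repeated cases the placement of reads depends on how the aligner treats equal matches, which the sources used here do not give.

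The remaining named regions had centres that occur once or 2 times. Intron 7 of 7 of Prickle2, a planar cell polarity gene, had 15, 17 and 4 reads, intron 4 of 4 of Wrb 14, 18 and 4, and intron 8 of 11 of Stk32c, nearest to Dpysl4, 12, 16 and 2. Acsl5, a fatty acid CoA ligase gene, had 12, 12 and 0 in its first intron. The region near AC107765.2 had 12, 14 and 2. Ahead of most of these in reads, and added after seeing the values, intron 1 of 11 of Smo, a Hedgehog pathway receptor component, nearest to Gm13717 had 37, 31 and 2 reads with a centre found 260 times. An intron of Spata5 nearest to Gm43484 had 25, 28 and 0 reads with a centre found 10 times.

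The 32 bp at the centre occurred once in the genome in 83.9% (82.2 to 85.5) of the 1942 regions, against 85.3% and 87.0% of regions read in a single library and 84.8% of a sample of 10856 from all regions. It occurred 10 times or more in 10.8% (9.42 to 12.2), against 9.69%, 8.61% and 9.99%. Perfect tandem runs of a unit of 1 to 4 bases over at least 24 bp were found in 9.06% (7.82 to 10.4) of the centre windows, against 7.55% (7.28 to 7.83), 6.90% (6.66 to 7.14) and 4.60%. At 8 reads or more in a single library they reached 17.3% (15.7 to 19.04) with Ad-Ets-1 and 16.2% (14.4 to 18.1) with Ad-GFP. A run of 4 GGAA units, which ETS proteins can bind, was found in 9 regions, 0.463% (0.212 to 0.878) against 0.300% of all regions.

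Among the 176 regions with a run, the unit was AC in 58, AG in 27, A in 22 and AAAG in 15, counting both strands and every phase. Their median ratio was 0.916, the same as over all 1942 regions. Dinucleotide runs are shown for the Gna12 intron, where the run spanned 33 bp, and for the promoter of Kank1. The Kank1 run spanned 48 bp up to the edge of the centre window, where the search stopped. Capitals mark the run.
Amz1, chr5:140766323-140766413, plus strand: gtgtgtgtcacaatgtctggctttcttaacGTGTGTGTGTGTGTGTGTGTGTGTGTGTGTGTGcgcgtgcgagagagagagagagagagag
Kank1, chr19:25235681-25235758, plus strand: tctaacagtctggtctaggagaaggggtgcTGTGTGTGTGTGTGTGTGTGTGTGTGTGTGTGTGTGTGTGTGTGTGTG

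Over the whole set, the interval of the ETS word share included the shares elsewhere. The word was found in 1.65% (1.13 to 2.32) of the 1942 centre windows, against 1.40%, 1.34% and 1.35% of regions read only with Ad-Ets-1, only with Ad-GFP and of all regions. The same letters in reversed order, not complemented, were found in 1.08% (0.671 to 1.65). In the 284 promoters the word was found in 4.58% (13 promoters, 2.46 to 7.70) and the reversed word in 0.704% (2 promoters, 0.0854 to 2.52). Promoters read only with Ad-Ets-1 held the word in 2.54% (2.04 to 3.13), those read only with Ad-GFP in 1.72% (1.32 to 2.19), and all promoter regions in 1.78%. At 8 reads or more in a single library the shares were 3.82% (13 of 340, 2.05 to 6.45) for Ad-Ets-1 and 0.690% (1 of 145, 0.0175 to 3.78) for Ad-GFP. The core GGAAGT alone was found in 9.58% (8.30 to 10.97) of all 1942 windows, against 10.6%, 10.5% and 10.99% of regions read only with Ad-Ets-1, only with Ad-GFP and of all regions.

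In each set the ETS word share was higher in CpG-rich promoters than in the other promoters. The part of base composition in the promoter shares was not tested. Within CpG-rich promoters the word was found in 6% (6 of 100, 2.23 to 12.6) of these regions, 6.84% (4.97 to 9.13) of those read only with Ad-Ets-1, 5.30% (2.93 to 8.74) of those read only with Ad-GFP and 4.50% (3.70 to 5.41) of all. In the other promoters the shares were 3.80% (7 of 184, 1.54 to 7.68), 1.59%, 1.43% and 1.62%. Over RefSeq promoter windows, 150 bases before to 50 after each of 32851 start sites, the word was found in 5.82% and the reversed word in 1.26%. Outside promoters the word and the reversed word were found in 1.15% each (19 of 1658). Around the summits of the Ad-Ets-1 peaks in promoters, the share was 2.51% (0.927 to 5.38), against 2.63% (2.11 to 3.23) for promoters read only with Ad-Ets-1. A match is a description of the letters in the window and not a measure of binding.

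**Figure D4:**
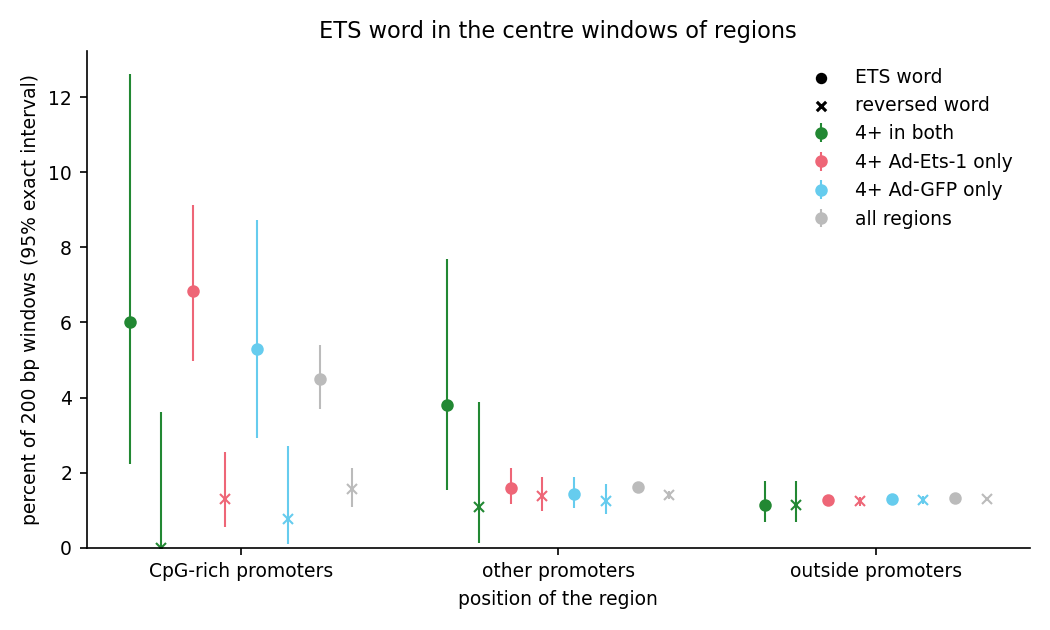
Percentage of 200 bp centre windows that hold the ETS word (circles) or the reversed word (crosses), with 95% exact intervals, for CpG-rich promoters, other promoters and regions outside promoters, in 4 sets of regions. In CpG-rich promoters the intervals of all 4 sets overlap, from 4.50% to 6.84%, and outside promoters both words lie near 1.15% to 1.32%.

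Reads at the promoters that hold the word did not share a direction. Ad-Ets-1 reads exceeded Ad-GFP reads at Rpl32 (29 against 4), Emc7 (15 against 4), Ngrn (8 against 4), Zdhhc5, a palmitoyltransferase gene (7 against 4), and by 1 or 2 reads at Hist1h1c (10 against 8), Gm6423 (5 against 4) and Srp19, a signal recognition particle subunit (5 against 4). Counts were equal at Bod1l (6 each), Sdf2l1, an endoplasmic reticulum chaperone component (6 each), Slc7a1, a cationic amino acid transporter (4 each), and Wdr83 (4 each). Fyco1, an autophagosome transport gene, had 4 against 6. The input was 0 at Hist1h1c, Gm6423, Srp19, Sdf2l1, Slc7a1, Wdr83 and Fyco1, 1 at Bod1l, and 2 to 4 at Rpl32, Emc7, Ngrn and Zdhhc5.

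A peak from each of the deposited lists lay in 1625 of the 1942 regions, 83.7%, while 71 held a peak of the Ad-Ets-1 list only and 246 of the Ad-GFP list only. Over all 542768 regions, 33288 held a peak of each list, and so did 15411 of 22101 regions with 2 to 3 reads in both libraries. The selection required reads in both libraries, so nothing is read from the share. Where both peaks were present in the 1942 regions, the strongest summits lay a median of 195 bp apart, with quartiles of 84 and 311 bp. They were within 100 bp of each other in 29.2% (27.0 to 31.4) and more than 250 bp apart in 36.3% (34.0 to 38.7). In 15411 regions with 2 to 3 reads in both libraries and both peaks, the median was 125 bp, 40.1% (39.4 to 40.9) lay within 100 bp and 5.09% lay more than 250 bp apart. Those regions were narrower, with a median of 328 bp. As a share of region width, the distance had a median of 30.1% in the well-read regions and 33.2% in the others.

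Summits lay closer in the regions with at least 8 reads in each library. Of the 50 regions of this kind with both peaks, 60% (45.2 to 73.6) had summits within 100 bp, with a median of 75 bp. Of the 689 with 4 reads in each, 28.2% (24.8 to 31.7) did, with a median of 181 bp. The regions with 8 or more in each were narrower, at a median of 463 against 579 bp; its part in the distance was not tested.

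**Figure D5:**
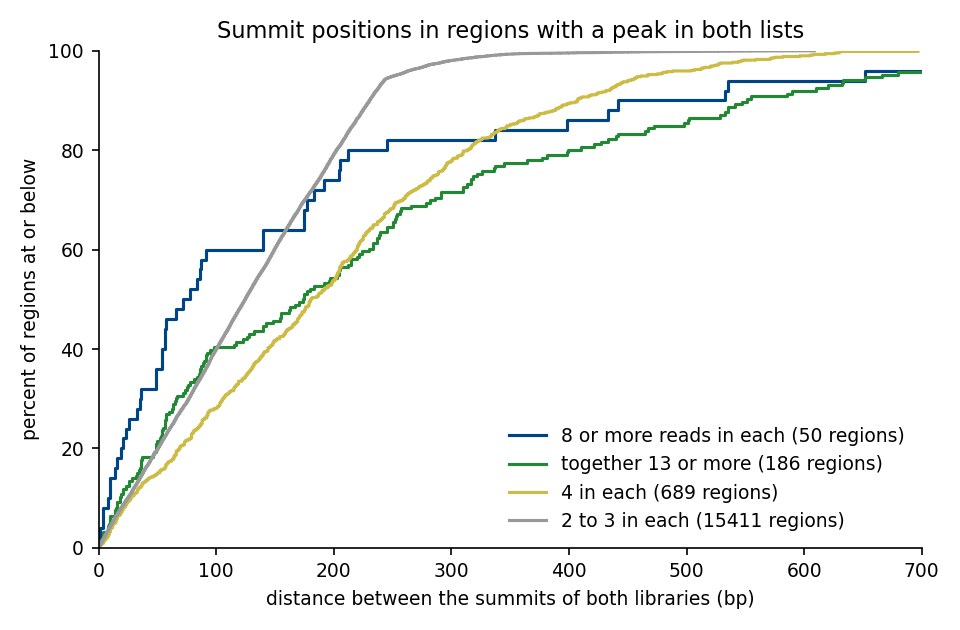
Cumulative percentage of regions whose Ad-Ets-1 and Ad-GFP summits lie within a given distance (bp), for regions with a peak in both lists. At 100 bp the curve stands at 60% for regions with 8 or more reads in each library, 40.3% for those with 13 or more together, 28.2% for those with 4 in each and 40.1% for those with 2 to 3 in each.

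A high read count did not always come with a peak in that library's own list. With peaks placed by their midpoints, of 108 regions with at least 10 Ad-Ets-1 reads, 8 had no peak in the Ad-Ets-1 list, and of 101 with at least 10 Ad-GFP reads, 4 had none in the Ad-GFP list. Carmil3, Mettl3, Prickle2, Acsl5 and the Stk32c intron were among the former. Peaks were also missing at lower counts. Under 10 reads, 238 of 1834 regions had no peak in the Ad-Ets-1 list, and 67 of 1841 had none in the Ad-GFP list. In the authors' deposited table of peaks, the Ad-GFP peak at Fgf21 had a fold enrichment of 9.22 and a −log10 q of 10.5, and the Ad-Ets-1 peak near Klf5 had 15.2 and 25.0. The authors' deposited table gives the Txnip peaks folds of 4.17 with Ad-Ets-1 and 4.98 with Ad-GFP. Folds in the authors' deposited table had a median of 2.76 over the 1696 regions with an Ad-Ets-1 peak and of 2.76 over the 1871 with an Ad-GFP peak.

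Few of the regions lay near each other. Within 10 kb of another were 39 of them, in 19 clusters. Pairs lay at Eif4a1, a translation initiation helicase gene, with 14 reads with Ad-Ets-1, 8 with Ad-GFP and 2 in the input, at Hist1h1d with 12, 8 and 0, at Mettl3 with 16, 22 and 4, and across the neighbours Hsp90ab1, a cytosolic chaperone gene, and Slc35b2 with 14, 8 and 2. Over chromosomes, 3.58 of every 1000 regions in the table were selected. The rate was highest on chromosomes 16 (5.81), 6 (5.09), 12 (4.62) and 4 (4.48) and lowest on X (1.35, 43 regions). On X the input reads falling in listed regions were 7.69 per Mb, against 14.9 to 19.4 per Mb on the autosomes, and reads of both precipitations per Mb were also lower on X than on any autosome.

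Genes of 10 lists were looked up as nearest genes, beside a background in which 4.11% of all 43945 named genes (1806) had such a region. The lists were chosen with earlier results of these data known, so their counts are descriptions only. Of 18 genes of glucose sensing and ChREBP, 4 had such a region. Besides Txnip, these were Abcc8, which encodes the sulphonylurea receptor of the potassium channel, with 6, 4 and 0 reads 1810 bp upstream of its start, Mlxipl, which encodes ChREBP itself, with 10, 4 and 2 reads in its 3′ UTR, and Tcf7l2, a Wnt pathway factor tied to type 2 diabetes risk, with 4, 4 and 0 in intron 4 of 12. Txnip and Abcc8 were the 2 at promoters, where 0.639% of all named genes (281) had such a region.

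Of 24 β-cell identity factors, 3 had a region, none of them at a promoter. Rfx3 had 2, with 6, 4 and 0 reads in intron 16 of 17 and 4, 4 and 0 upstream of the gene, and Glis3 had 1, with 4, 4 and 0 in intron 2 of 10. Ins1 was the nearest gene of a region 240535 bp away with 4, 6 and 0 reads. Of 25 chromatin and transcription machinery genes, 3 had one: the start of Polr2a, the largest subunit of RNA polymerase II, with 10, 4 and 3 reads, Eed, a Polycomb subunit, with 6, 4 and 1, and Tet1, a 5-methylcytosine oxidase, with 4, 4 and 0. Of 25 insulin signalling genes, Grb10 was the only one, with 4, 4 and 0. Of 21 ribosomal protein genes, only Rpl32 had one.

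The ETS family had 1 of 22, a region of 4, 6 and 0 reads that lay 37941 bp upstream of Etv4. No region was nearest to Ets1 itself. None was found for the 16 cell cycle, 20 secretory granule and 16 unfolded protein response genes, nor for 22 markers of other cell types. Among gene families, 20 of 1352 olfactory receptor genes, 1.48%, 17 of 522 vomeronasal receptor genes, 3.26%, and 14 of 356 Zfp genes, 3.93%, had one. These counts do not allow for gene length or spacing, and nearest does not mean regulated.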

How the data were processed

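The 3 deposited files used were the peak lists of both precipitations and a region table that sets both beside the input. Per the submitters' processing notes, the tools were BWA 0.7.12, MACS2 2.1.0, Trimmomatic and FastQC and the build was mm10. Not given in the sources used here: settings, the treatment of reads with several matches, the control in peak calling. For each region, the comparison table holds the authors' read counts, RPM with 1 read added, a ratio (fold) and its log2, per the file headers. Annotation classes, nearest genes and distances are also theirs. In the peak lists the authors deposited a fold enrichment, a −log10 q value and a score for each peak, per the file headers, used here only to find the strongest peak and to describe it.

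The regions and gene lists were chosen with earlier results of these data known. Groups came from sample titles, 1 library each, and every comparison is a description. Library totals were computed back from each count and its RPM. Ratios of counts scaled to these totals have exact conditional binomial 95% intervals on fragments (reads over 2, rounded up), and shares have Clopper-Pearson intervals. Windows of 200 bp were read from RefSeq's GRCm38.p6 sequence and 1100 of 1102 regions without a gene name in the table were named from GENCODE M21, where 1914 of 1940 shared transcripts had the same coordinates. Copies of the 32 bp at a region's centre were counted on both strands; for all regions they were counted in a sample of 1 in 50. Named genes were the 15 promoters and 10 other regions with the highest lower RPM, leaving out names starting Gm or ending Rik, the 5 largest ratios in each direction and up to 4 per gene list; a few of the regions so chosen are left out of the text. The 10 lists were the ETS family, β-cell identity factors, glucose sensing and ChREBP, insulin signalling and FoxO, secretory granule and exocytosis, unfolded protein response, cell cycle and DNA replication, cytosolic ribosomal proteins, chromatin and transcription machinery, and other cell type markers. Alternatives were other read minimums, input maximums, windows, words, run lengths, library totals and peak choices; groups by read number, minimums of 8 reads in a single library, the ratio by class and further named regions were added after seeing the data. Scripts were tested on simulated data. Versions were scipy 1.17.1, pandas 2.3.3, numpy 2.4.6, matplotlib 3.10.9 and Python 3.11.15.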

Additional observations from a re-analysis of the deposited data

How the results depend on the processing

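No paired analysis was possible because there was 1 library in every group, and none could be left out. Over 52 alternatives, 29 values moved by less than their interval or, for counts, by less than 1.5 times, and 23 moved further; the cause was not tested. With at least 6 reads in both libraries there were 213 regions, with a promoter share of 22.5%, an ETS word share of 3.29% (8.33% in promoters), a tandem run share of 14.1% and a median GC content of 43.0%. With at least 8 there were 70, with 28.6%, 2.86%, 14.3% and 47.0%, a CpG-rich share of promoters of 15.0% and a median summit distance of 75 bp. Without an input maximum the promoter share was 16.3% and the summit distance 179 bp. Promoters of at most 1 kb made up 12.7%. The ETS word was found in 4.17% of whole regions (9.15% in promoters), CCGGAAGT alone in 0.360% of centre windows and GGAAGT alone in 9.58% (12.3% in promoters). Tandem runs of at least 36 bp were found in 4.99%, and runs of at least 24 bp in 21.3% of whole regions. With the comparison sets under the same change, whole regions held the word in 3.097% (Ad-Ets-1 only) and 2.89% (Ad-GFP only), and regions differ in width. The median ratio stayed at 0.916 under each of its alternatives. Depth limits every value: a region of 4 reads rests on 2 fragments, and the ratio of 2 against 2 fragments has an interval of 0.0664 to 12.6.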
